A study of Mus musculus with 4 samples.

Results

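Sequence variants in the messenger RNA of 3 mouse collagen genes, Col5a1, Col7a1 and Col12a1, were described in 2 cancer cell lines. The members are all listed variants whose annotated gene symbol is one of the 3, and there are 15 of them among 11806 records, 12 of 6361 in MBT2 and 3 of 5445 in LM8. The bladder cancer line MBT2 carries the label #63, and the other line, LM8, is from an osteosarcoma. Both are syngeneic with C3H/HeN mice, were grown in culture with serum and harvested untreated, and each was sequenced as 2 poly(A)-selected, strand-specific libraries with paired reads. For LM8 the labels also give 24 mM HEPES, which those of MBT2 do not name, so any such difference goes with the line. A number after a plus sign in the labels, 22 for both MBT2 libraries and 7 for both LM8 libraries, also goes with the line. The labels do not say that the duplicates were separate cultures, so their spread may be technical. The genes were chosen by the number, type and read fractions of their variants in these lists, so the counts and fractions below are descriptions. The files hold variant sites and no expression values, so the cell types could not be checked: none of 12 urothelial and epithelial markers had a listed site in either line, and 3 of 12 osteoblast and mesenchymal markers had one in LM8 and 1 in MBT2.

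Collagens are trimeric proteins of the extracellular matrix whose chains wind into a triple helix, and in the helical part each triplet of residues begins with a glycine, a pattern written Gly-X-Y. Col5a1 encodes a chain of type V collagen, which takes part in starting fibrils and setting their diameter. Col7a1 encodes the chain of type VII collagen, which forms the anchoring fibrils under epithelial basement membranes. Col12a1 encodes the chain of type XII collagen, which lies on the surface of fibrils and carries large non-helical domains. In the GENCODE transcript models, Col5a1 has 66 exons and 1838 residues, Col7a1 118 exons and 2944 residues, and Col12a1 66 exons and 3065 residues. The longest unbroken Gly-X-Y run has 338 triplets in Col5a1, 75 in Col7a1 and 32 in Col12a1.

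The MBT2 variants of Col5a1 were 1 single-base deletion and 2 substitutions, and the LM8 list had 1 Col5a1 substitution. Col7a1 had 8 variants in MBT2, 6 long deletions and 2 missense substitutions, and none in LM8. Col12a1 had 1 missense substitution in MBT2, and 1 single-base deletion and 1 long deletion in LM8. No variant of the 3 genes was in both lists (0 of 15), against 23.2% of all LM8 and 19.8% of all MBT2 variants. A gene without a listed variant in a line may be unexpressed, too shallow or unchanged there, and these cannot be told apart. Genes with a listed variant had a median of 1 in either line, and 17 MBT2 genes, Col7a1 among them, had 8 or more. The number of variants was part of what chose Col7a1, so its place by number is a description only.

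**Figure D1:**
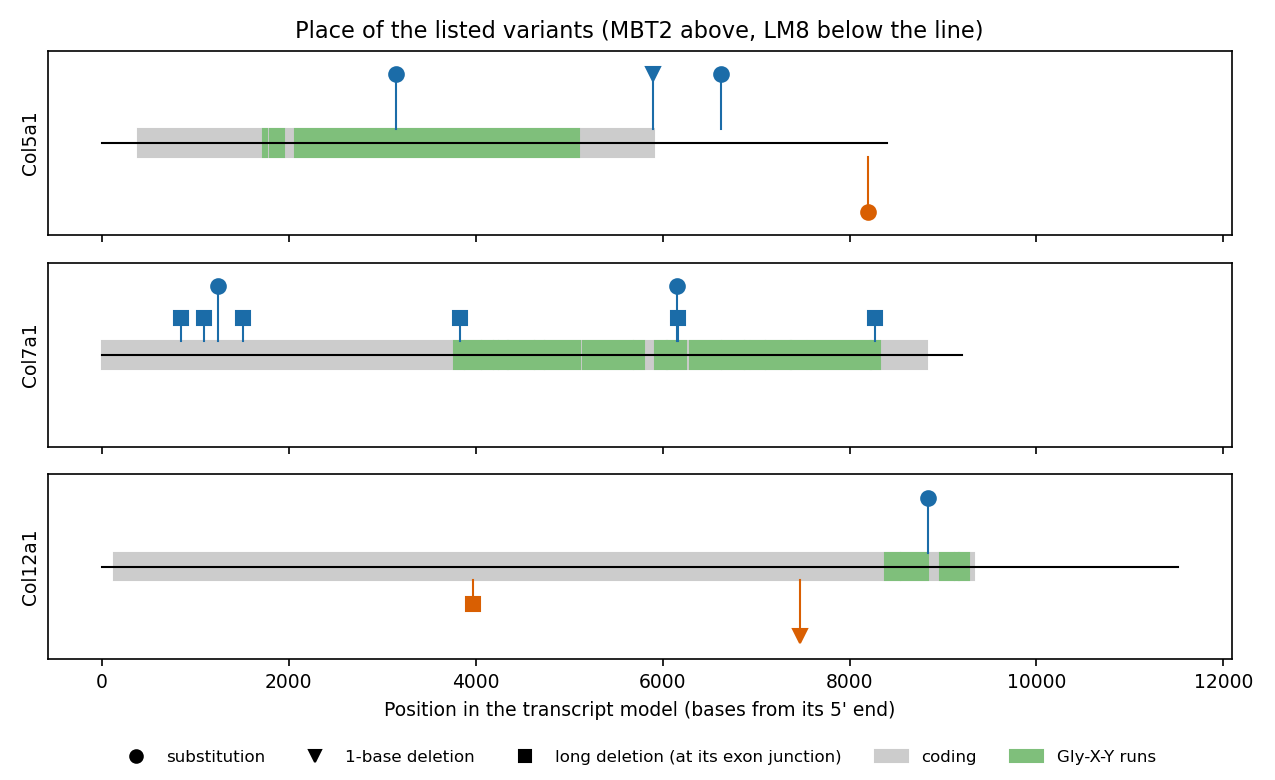
Place of the 15 variants along the transcript models of Col5a1, Col7a1 and Col12a1 (x axis, bases from the 5′ end), with coding sequence in grey and Gly-X-Y runs of 5 or more triplets in green. MBT2 variants stand above each line and LM8 variants below, with long deletions drawn at the exon junction where they lie. The Col5a1 single-base deletion sits at the very end of the coding sequence.

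The Col5a1 single-base deletion and the bases around it are shown because they set what the frameshift call amounts to. It lies on chromosome 2 at position 27927018 of GRCm39, in the last exon (66), and removes 1 of 2 adjacent C bases. The last 30 coding bases, stop codon included, are given from the GENCODE model with the C bases of the run in capitals.
Col5a1 reference: gaagtggggccagcttgcttCCtaggctag
Col5a1 with the deletion: gaagtggggccagcttgcttCtaggctag
The deleted base lies 6 bases before the stop codon. Read in frame, the shortened sequence reaches a tag stop codon immediately, so that 1836 residues are kept, the last 2 residues are lost and 0 new residues are added. The submitters' annotation gives a frameshift of high impact at codon 1837 of 1838. The C-terminal propeptide that these residues close is known to bring fibrillar collagen chains together before the helix folds.

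The deletion was in most of the Col5a1 reads that cover it in MBT2. Library 1 had 482 alternative and 269 reference reads (64.2%), and library 2 had 495 and 300 (62.3%). Over both, 977 of 1546 reads carried it, which is 63.2% (exact binomial 95% interval 60.7 to 65.6). Here and below intervals cover counting error only, because amplified reads can repeat the same molecule and both mates of a pair can count. Counted as fragments, with both mates of a pair taken once, it was in 976 of 1545 (63.2%). The duplicates differed by less than sampling noise at this site (Fisher's exact test, two-sided, p = 0.460, adjusted p = 1 over all MBT2 sites). The median base quality was 31 for both alleles, and reads with the deletion had it at a median of 20 bases from their end. Of the 977 reads, 696 were forward and 281 reverse, against 438 and 131 of the reference reads.

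Both Col5a1 substitutions of MBT2 were at a lower, common level. The T-to-C change at position 27885884 (exon 34) leaves glycine 919 unchanged, a glycine inside the long Gly-X-Y run from residue 559 to 1572. It was in 110 of 316 reads in library 1 (34.8%) and 105 of 346 in library 2 (30.3%), together 32.5% (28.9 to 36.2). The A-to-T change at position 27927747 lies in the 3′ UTR of the same exon as the deletion, 719 bases past the coding end by the annotation. It was in 74 of 219 reads (33.8%) and 86 of 268 reads (32.1%), together 32.9% (28.7 to 37.2). The fractions of the 2 substitutions overlapped in their intervals, and that of the deletion lay above both in each library. Which of them lie on the same RNA molecules was not tested, since no record joins their phase.

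**Figure D2:**
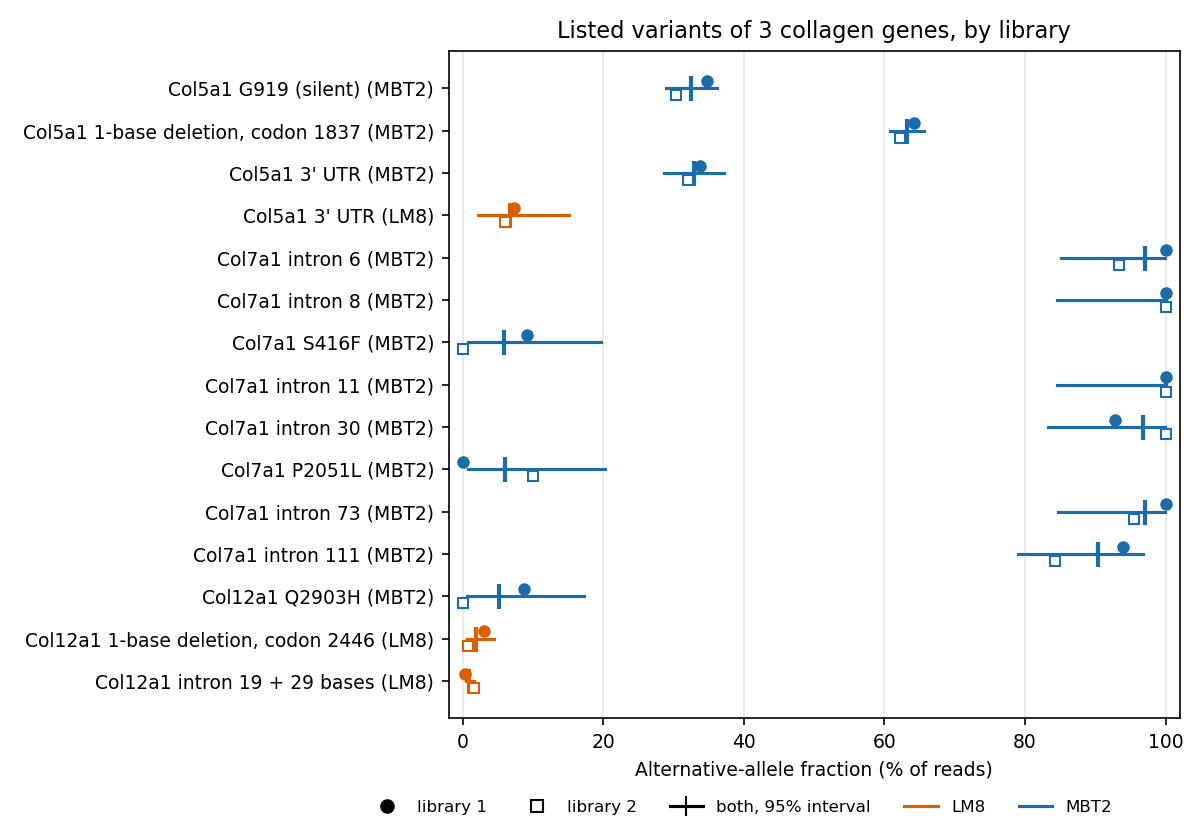
Alternative-allele fraction of the 15 variants (x axis, % of reads), with filled circles for library 1, open squares for library 2, and a bar for both libraries with its exact 95% interval. The Col5a1 deletion stands alone at 63.2% between the 2 Col5a1 substitutions near 33% and the Col7a1 intron-length deletions at 90.4% or more.

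Within MBT2, the fraction of the Col5a1 deletion lay above the median of its type and below the upper quartile of 68.5%. Of 114 MBT2 deletions of 1 to 20 bases, 30 (26.3%) were at 60% or more, and this was the only one between 60% and 70%. The median of that type was 6.39% of reads. Among 3169 MBT2 substitutions, 58 were between 60% and 70%, and 284 were between 25% and 40%, where both Col5a1 substitutions lie. Between 40% and 60% the list held 3 substitutions and 0 deletions of this length. Among the MBT2 frameshifts that are no long deletions, the Col5a1 deletion ranked 6 of 278 by fraction, and 10 of the 278 were at 20% or more. The 3 highest were insertions of more than 1 base, in Nxf1 (85.4% of 713 reads), Tprkb (82.2% of 393) and Phldb1 (79.3% of 111). In LM8 the 3 highest were also longer insertions, in Mvk (89.6% of 230 reads), Tprkb (82.2% of 366) and Fbxo3 (73.1% of 160).

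**Figure D3:**
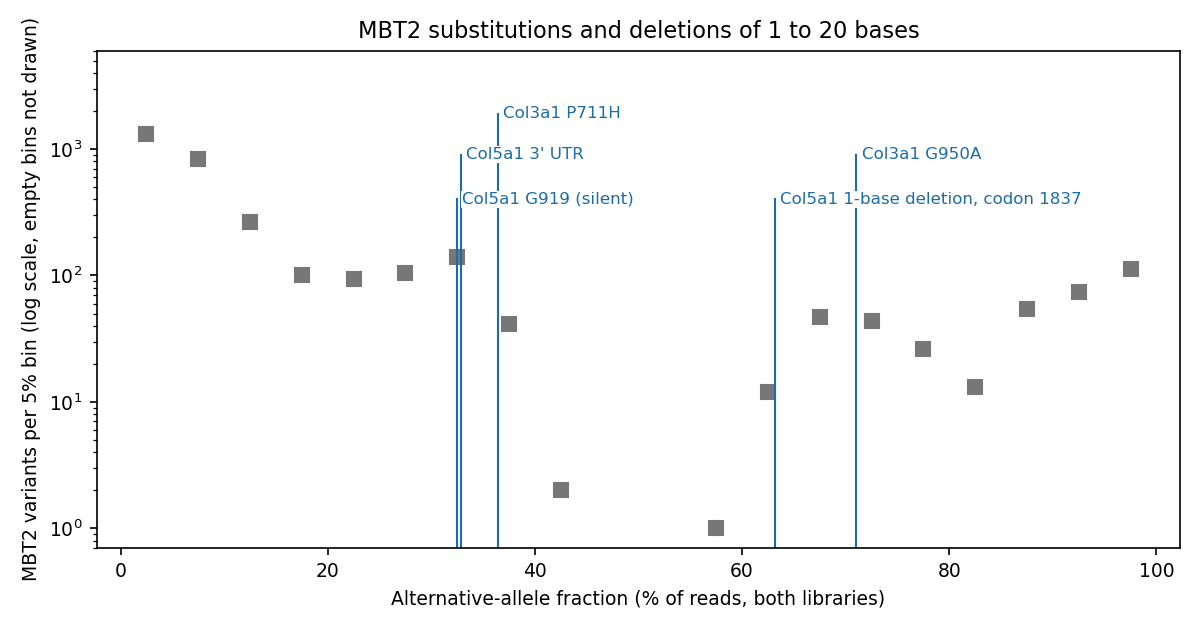
Number of MBT2 substitutions and deletions of 1 to 20 bases (squares, y axis, log scale, empty bins not drawn) by alternative-allele fraction in bins of 5% (x axis), with lines at the 3 Col5a1 variants and at 2 missense changes of Col3a1. The Col5a1 deletion at 63.2% and Col3a1 G950A at 71.0% lie on the upper side of the gap between 40% and 60%, the other marked variants on the lower side.

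The LM8 variant of Col5a1 was an A-to-G change in the 3′ UTR at position 27929320, 2292 bases past the coding end. It was in 3 of 41 reads in library 1 (7.32%) and 2 of 33 in library 2 (6.06%), together 6.76% of 74 reads (2.23 to 15.1). The alternative base lay at a median of 1 base from the read end, as in 32.5% of the LM8 substitutions, and all 5 alternative reads were on the reverse strand, as were 62 of 69 reference reads. Whether read ends play a part in this call was not tested.

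The long deletions of Col7a1 are printed because their bases can be set against the ends of introns, which begin with GT and end with AG. Each is the deposited reference allele without its anchor base, named by the intron it matches. Coordinates are GRCm39, counted from 1. Capitals mark the opening G or AG, the GT that follows it and, in the runs that open with a single G, the final A.
Col7a1 intron 6, chr9:108785122-108785195, plus strand: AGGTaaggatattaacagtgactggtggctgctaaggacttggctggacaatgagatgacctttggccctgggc
Col7a1 intron 8, chr9:108785546-108785627, plus strand: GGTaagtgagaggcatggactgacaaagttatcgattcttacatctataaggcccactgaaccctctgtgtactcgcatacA
Col7a1 intron 11, chr9:108786203-108786279, plus strand: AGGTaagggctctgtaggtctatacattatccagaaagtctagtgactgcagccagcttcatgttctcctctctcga
Col7a1 intron 30, chr9:108792215-108792284, plus strand: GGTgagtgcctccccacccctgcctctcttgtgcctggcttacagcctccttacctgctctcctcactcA
Col7a1 intron 73, chr9:108802167-108802258, plus strand: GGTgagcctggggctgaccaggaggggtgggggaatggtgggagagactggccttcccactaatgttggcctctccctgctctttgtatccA
Col7a1 intron 111, chr9:108811444-108811535, plus strand: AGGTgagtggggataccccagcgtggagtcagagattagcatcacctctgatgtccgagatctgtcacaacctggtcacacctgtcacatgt
The number of opening bases to move was chosen so that a run would begin with GT and end with AG. Where a run opens with AG, the final AG is that moved AG, so this end is no separate match. With the opening 1 or 2 bases moved to the end, all 6 begin with GT and end with AG. That is the same deletion only where the bases after it repeat those bases, which was not checked, since no genome of this build was used. Their lengths, 70 to 92 bases, each equal the length of a Col7a1 intron in the GENCODE models (6 of the 7 long deletions of the 3 genes, against 64.8% of all MBT2 and 65.3% of all LM8 long deletions). That match alone carries little weight here, because 42 of the 118 annotated Col7a1 introns have 70 to 92 bases and 21 of the 23 lengths in that range occur among them. The exon end before the deletion matched over the 2 or 3 bases that the allele gives: for 5 deletions 1 of the 2 to 4 introns of that length had the fitting exon end, and for the deletion at position 108802166 there were 2, of which only intron 73 is in the order of its neighbours along the chromosome. The introns were 6, 8, 11, 30, 73 and 111 of the 117 in the main model. Introns 6, 8 and 11 join exons of the non-helical N-terminal part, intron 30 lies inside the first Gly-X-Y run, and 73 and 111 lie in the later helical part. The annotation calls all 6 downstream or upstream variants of short transcripts with a retained intron and gives none of them a coding effect.

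Nearly all reads that cover these sites had the deletion. For intron 6 it was in 20 of 20 reads in library 1 and 14 of 15 in library 2 (97.1% together). For intron 8 it was in 10 of 10 and 12 of 12 reads, and for intron 11 in 12 of 12 and 10 of 10 (both 100%, interval 84.6 to 100). These sites had no reference read in either library. For intron 30 the counts were 13 of 14 and 17 of 17 reads (96.8%), for intron 73 they were 12 of 12 and 21 of 22 (97.1%), and for intron 111 they were 31 of 33 and 16 of 19 (90.4%, 79.0 to 96.8). Intron 111 had 5 reference reads, the most of the 6 sites. In all, the fractions ran from 90.4% to 100%. The median over the 2023 MBT2 long deletions was 86.7%, with quartiles of 74.0% and 91.2%. The intervals of all 6 sites include that median, so the counts do not set them above it. The intervals of the 6 sites overlap one another. Many of these reads are both mates of 1 fragment, which the read intervals do not allow for. Counted as fragments, the deletion was in 17 of 18 for intron 6, 12 of 12 for intron 8 and 11 of 11 for intron 11. It was in 13 of 14 for intron 30, 17 of 18 for intron 73 and 32 of 37 for intron 111. Fragment intervals are wider, such as 71.5 to 100 for intron 11 and 66.1 to 99.8 for intron 30. Spliced RNA lacks its introns, and whether these records stand for splicing or for a change of the gene was not tested. The sources used here do not state how reads across splice junctions were prepared for the caller.

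The 2 missense calls of Col7a1 and the 1 of Col12a1 in MBT2 each rested on a single fragment. S416F of Col7a1 (position 108785864, exon 10) had 2 alternative of 22 reads in library 1 (9.09%) and 0 of 12 in library 2, a count of 0 that allows up to 25%. P2051L of Col7a1 (position 108802157, exon 73) had 0 of 13 reads in library 1, which allows up to 23.1%, and 2 of 20 in library 2 (10.0%). Q2903H of Col12a1 (position 79512485, exon 62) had 2 of 23 reads in library 1 (8.70%) and 0 of 16 in library 2, which allows up to 18.8%. In all 3, the alternative reads came from 1 library and the 2 reads were the mates of 1 fragment, among 20, 18 and 23 fragments. All alternative reads came from 1 fragment in 7.69% of the 754 MBT2 missense substitutions, and 1 library had no alternative read in 5.77% of all MBT2 variants (7.82% in LM8, with 0 of the 3 variants there). The limits above count reads. In fragments, the libraries without an alternative read held 8 for S416F, 7 for P2051L and 9 for Q2903H, so limits by fragments would be wider. At this depth, presence in the other library could not be told from absence.

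These 3 sites differ in their place in the proteins. P2051L changes a proline in the Y place of a Gly-X-Y run of 23 triplets, residues 2016 to 2084; proline in that place is the residue that prolyl 4-hydroxylases modify, which stabilises the helix. Its base lies 10 bases before the end of exon 73, and the caller placed it in the same phase set as the deletion of intron 73. S416F lies outside the Gly-X-Y runs, 3 bases from the start of exon 10. Q2903H lies 3 residues past the end of a Gly-X-Y run of Col12a1 that ends at residue 2900. The codons at all 6 numbered sites of the 3 genes were the same in the GENCODE models as in the annotation of the files.

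**Figure D4:**
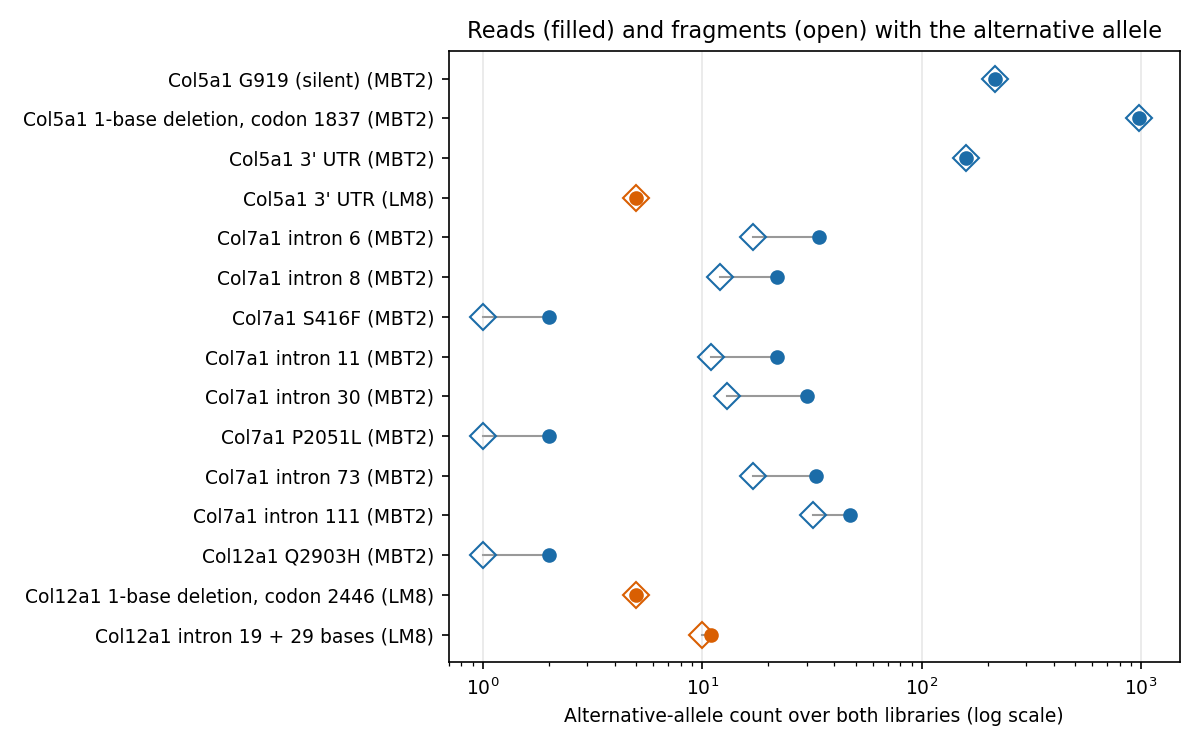
Alternative-allele reads (filled circles) and fragments (open diamonds) of the 15 variants over both libraries (x axis, log scale). The 3 missense variants of Col7a1 and Col12a1 stand at 2 reads and 1 fragment, and the Col5a1 deletion at 977 reads and 976 fragments.

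The Col12a1 long deletion of LM8 did not have the length of an annotated intron. Its 129 bases are printed on the gene's strand (the minus strand, chr9:79585412-79585540, GRCm39), with the first GT, the AG that ends the annotated intron and the final AG in capitals.
Col12a1 intron 19 and start of exon 20: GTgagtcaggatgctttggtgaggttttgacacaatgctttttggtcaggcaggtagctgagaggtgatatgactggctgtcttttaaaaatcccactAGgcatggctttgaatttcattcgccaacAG
The first 100 bases have the length of intron 19, and the remaining 29 bases equal the first 29 bases of exon 20 in the GENCODE model. The deletion thus begins at the annotated donor and ends at an AG inside the next exon. Since 29 is no multiple of the codon length, the reading frame after it is shifted. The annotation lists a frameshift in exon 20, and in the GENCODE model the first codon touched is 1279. The deletion was in 2 of 629 reads in library 1 (0.318%) and 9 of 546 in library 2 (1.65%), together 0.936% of 1175 reads (0.468 to 1.67), or 10 fragments of 1142. Of the LM8 long deletions, 3.06% were under 2% of reads, and their median was 87.5%. It was the 1 variant of the 15 with an unadjusted p under 0.05 between duplicates (Fisher's exact test, two-sided, p = 0.0291, adjusted p = 1). Between duplicates, 0 of the 15 variants passed the adjusted threshold, against 0% of the sites in either line, and 3.89% of LM8 and 3.76% of MBT2 sites had an unadjusted p under 0.05.

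The other Col12a1 variant of LM8 was a single-base deletion at position 79540645 (exon 46, codon 2446). It was in 4 of 134 reads in library 1 (2.99%) and 1 of 122 in library 2 (0.820%), together 1.95% of 256 reads (0.637 to 4.5). It ranked 189 of 204 by fraction among the LM8 frameshifts that are no long deletions, whose median was 4.17%. The alternative reads had the change at a median of 1 base from their end, as in 9.52% of the LM8 deletions of 1 to 20 bases. The part of read ends in this call was not tested.

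The reads matched the strand of the genes. Where a pair orientation was counted, all 2577 counts over Col5a1 sites and all 127 over Col7a1 sites, genes on the plus strand, had the same orientation, and all 1292 over Col12a1 sites, on the minus strand, had the other.

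Other collagen chain genes gave a context for the 3. Of 41 other chain genes, 7 had a listed variant in LM8 (10 variants) and 6 in MBT2 (11 variants), and 8 variants in each line were no long deletions. In MBT2 the type III chain gene Col3a1, which encodes a fibrillar chain, had G950A in 71.0% of 1633 reads (69.3% and 72.6% in the libraries) and P711H in 36.4% of 1380 reads (37.2% and 35.7%). G950A replaces the glycine of a triplet in a run of 344, and P711H lies in an X place of the same run. Col5a2, whose chain joins that of Col5a1 in type V collagen, had D792G in 3.88% of 206 reads in MBT2, and S1306N and G346E in LM8. S1306N was in 6.82% of 88 reads (9.52% and 4.35% in the libraries). G346E replaces the glycine of a triplet in a run of 339, and D792G lies in a Y place of the same run. G346E was in 4.32% of 162 reads, all alternative reads being in library 1 (7.61% and 0%). Its 3′ UTR substitution was the single variant of a chain gene in both lists, at 3.24% in LM8 and 3.07% in MBT2 (Fisher's exact test, two-sided, adjusted p = 1). Col6a3 K1303Q was in 25.9% of 815 LM8 reads (26.5% and 25.1% in the libraries). Col4a1 K1120R was in 13.7% of 51 LM8 reads, from 4 fragments, with 20% in library 1 and 4.76% in library 2. Col6a5 V687A was in 2.92% of 137 MBT2 reads, with 1.43% and 4.48% in the libraries. The median distance from the read end was 1 base for S1306N, G346E and the shared 3′ UTR substitution. It was 2 bases for V687A and 3 for D792G and K1120R, against 18 for both Col3a1 changes and 21 for K1303Q. Whether read ends play a part in these calls was not tested. Over all chain genes, leaving out long deletions, 6 of 14 MBT2 variants and 1 of 10 LM8 variants were at 20% of reads or more. Of the 6, 3 were those of Col5a1. The rest were the named changes of Col3a1 and a substitution annotated upstream of Col6a5 (15 of 15 reads). Without the 3 genes, which were chosen partly by their fractions, the counts were 3 of 8 in MBT2 and 1 of 8 in LM8. Across all genes the shares of substitutions at 20% or more were 23.1% in MBT2 and 13.5% in LM8. These shares are for substitutions alone, while the chain gene counts also hold short deletions and insertions.

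**Figure D5:**
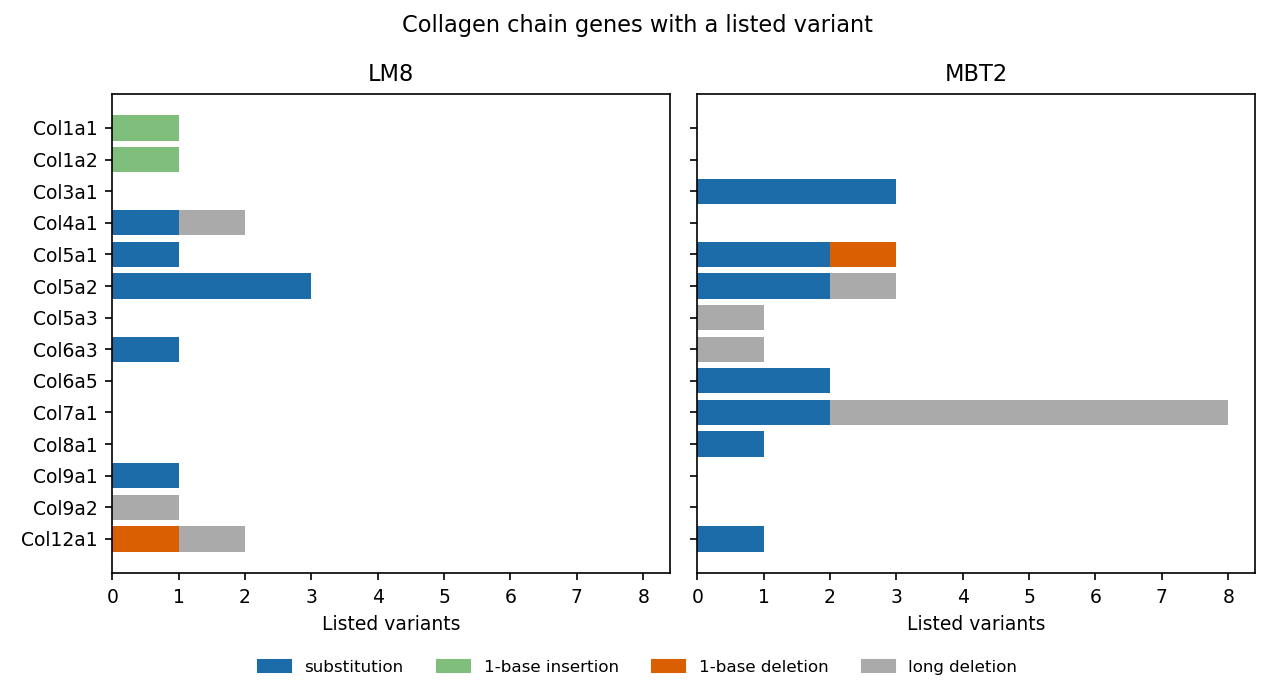
Number of listed variants per collagen chain gene (x axis) in LM8 (left) and MBT2 (right), coloured by type. Col7a1 had the longest bar, 8 variants in MBT2, of which 6 were long deletions.

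Of 44 symbols of genes that modify, fold, cut or cross-link collagen, 11 had a listed variant in LM8 (13 variants) and 15 in MBT2 (20 variants). Protein-altering variants other than long deletions numbered 0 in LM8 and 2 in MBT2, L72P of the prolyl 3-hydroxylase family gene P3h3 in 26.5% of 162 reads and T335A of Bmp1, a procollagen C-proteinase gene, in 4.40% of 91 reads. Reads with T335A had it at a median of 2 bases from their end, and those with L72P at 16. The genes with the most listed variants were P4hb with 3 in MBT2, and Mmp14, P3h3 and Timp2 with 2 each there and Mmp14 and Lox with 2 each in LM8. Of the 6 variants of these genes in both lists, 2 differed in fraction between the lines, against 7.3% of the 1261 shared sites. They were intron-length deletions. That of P3h4 was in 91.7% and 88.8% of reads in the LM8 libraries and 70.8% and 70.1% in the MBT2 libraries (Fisher's exact test, two-sided, adjusted p = 4.26e-10). That of Serpinh1, a collagen chaperone gene, was in 13.8% and 12.3% in LM8 and 6.50% and 6.90% in MBT2 (Fisher's exact test, two-sided, adjusted p = 4.00e-05). With replicate 1 of both lines left out, Serpinh1 no longer passed (Fisher's exact test, adjusted p = 0.0651), and P3h4 did (adjusted p = 0.000574). The test compares 1 list per line, and reads are not repeated cultures.

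Among 26 matrix partners and receptors of collagen, 5 genes in each line had a listed variant, with 9 variants in LM8 and 8 in MBT2. The collagen receptor kinase gene Ddr2 had A853D in 66.6% of 643 MBT2 reads and E498V in 7.38% of 149. Other MBT2 changes were A2826T (32.5% of 870 reads) and C1738Y (5.61% of 196) of the fibrillin gene Fbn1, and the stop-gained E941* of the fibulin gene Fbln2 (11.8% of 51). LM8 had T2050S (83.0% of 100 reads) and D2194E (15.9% of 195) in the tenascin gene Tnxb, R572C in the tenascin gene Tnc (24.2% of 2637) and G342A in the receptor kinase gene Ddr1 (28.6% of 119). P1332L in the integrin gene Itgb4 was in 2 of 30 LM8 reads (6.67%), both from 1 fragment in library 2 (0% and 14.3% in the libraries). The median distance from the read end was 1 base for C1738Y and 4 for E498V, and 10 or more for the other changes named here. The part of read ends in these calls was not tested. Differences between C3H/HeN and the reference strain were not told apart from mutations at any of these sites.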

How the data were processed

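The deposited files are 1 variant list per line in variant call format 4.2, with 2 libraries in each. Each library's column is of mixed content (unit other): per the file headers, it holds reads per allele, fragments per allele and the caller's fraction. The authors called variants with Mutect 2.2 and filtered them with GATK 4.1.5.0, per the file headers, which name no normal sample (GATK 4.3.0 per the submitters' processing notes). Both libraries of a line stand in 1 deposited list. Effects came from SnpEff 5.1d, database 105 of GRCm39, per the file headers. The submitters' processing notes also name bcl2fastq 2.17.1.14, cutadapt 1.9.1 and STAR 2.7.9a.

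Fractions are alternative over all allele reads, summed over both libraries, with exact Clopper-Pearson 95% intervals. Listed sites had median depths of 61 to 73 reads per library. A site of 0 alternative reads allows up to 3 reads. Long deletions have 21 or more bases. Fisher's exact test, two-sided, with Benjamini-Hochberg adjustment over all sites of a line (duplicates) or all sites in both lists (lines) used a threshold of 0.05. It was tried on simulated duplicates with independent reads and large differences planted at deep sites only. That trial does not cover sites as shallow as those of Col7a1, nor reads that are mates of the same fragment.

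Transcript models and intron lengths came from GENCODE M21, a release on GRCm38, and only lengths and bases were taken from it, no coordinates. The genes, the gene lists and the tests were chosen with earlier results of these data known. Named are every variant of the 3 genes, every listed gene of the collagen, processing and partner lists with a protein-altering variant other than a long deletion, up to 5 genes per list with the most variants, and the 3 highest other frameshifts per line. Samples were grouped by cell line, and alternatives were each library alone, the mean of both, the caller's fraction, depth minimums, looser intron and variant matches, and, added after seeing the data, fragments. Tables were made in pandas 2.3.3, tests in scipy 1.17.1 with numpy 2.4.6, and plots in matplotlib 3.10.9, all under Python 3.11.15.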

Additional observations from a re-analysis of the deposited data

How the results depend on the processing

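The Col5a1 deletion was at 62.3% to 64.2% with either library left out, 63.2% as the mean of both or by the caller's estimate, and 63.2% by fragments. Of the 15 variants, 8 moved by more than the spread of the duplicates under 1 alternative, the caller's estimate, which put the 6 Col7a1 deletions at 80.7% to 87.3%, P2051L at 13.2% and the LM8 Col5a1 substitution at 8.15%. The same estimate put S416F at 12.2% and Q2903H at 10.8%, within the wide spread of their duplicates. With at least 40 reads required, 4 of the 12 MBT2 variants remained, and 9 with an alternative read in each library or with at least 2 fragments. Intron lengths of only the transcript named by the annotation matched 0 long deletions against 6. The 6 Col7a1 deletions lie upstream or downstream of the transcripts named for them, so this alternative could not find their introns. Without long deletions, collagen processing genes had 7 variants in LM8 and 12 in MBT2. Between the lines, 92 shared sites passed the test, 39 to 45 with 1 replicate number left out, which has fewer reads, and 84 with the replicate number as a block. The numbers share no known source, and the duplicate differences of the lines correlated at -0.022 across shared sites. The 0 calls between duplicates stayed 0 in both lines with at least 20 reads per library and without long deletions. The Col7a1 sites had 22 to 52 reads each, from 11 to 37 fragments, which leaves wide intervals.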
